A study of Bos taurus with 24 samples.

Results

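The ZNF zinc finger genes of bovine oocytes were described here across the germinal vesicle (GV) stage, the metaphase II (MII) stage and both collection months. They were taken by symbol, as the rows whose gene symbol is ZNF followed by a digit, with ZNF830 left out, which gave 167 of the 11306 genes in the deposited table. The study sampled oocytes of Angus-based crossbred Bos taurus beef cows, neither lactating nor pregnant, by ultrasound-guided follicle aspiration in spring (May) and in summer (July), and asked how summer heat affects the oocyte. The 4 groups were GV oocytes of May, GV oocytes of July, MII oocytes of May and MII oocytes of July, with 6 libraries each and 24 in all. The MII oocytes had been matured in culture with FSH and serum, so maturation and time in culture cannot be told apart, and the cows of both months were kept under the same management. Cumulus cells had been stripped from all oocytes, and each library was 1 pool of 4 oocytes of 1 animal. The same herd was aspirated in both months and part of each collection was matured, so libraries of different groups can come from the same animal, while the tests treat all libraries as independent. In such pools, fewer oocytes carrying a transcript and less of it per oocyte cannot be told apart. The mRNA was captured and amplified before sequencing. A change in how well a transcript is captured and a change in its amount therefore cannot be told apart either.

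Most ZNF proteins hold runs of C2H2 zinc fingers, short folds around a zinc ion that read DNA bases. Many of them carry a KRAB domain, which recruits the corepressor TRIM28 and, through it, the histone methyltransferase SETDB1 to silence transposable elements and imprinted loci in germ cells and early embryos. Others of the name work elsewhere, in ribosome assembly, RNA binding or chromosome segregation. A GV oocyte holds stored maternal mRNA and makes little new RNA by the end of its growth, and an MII oocyte is arrested with condensed chromosomes and does not transcribe.

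Expression was deposited as FPKM, named for fragments scaled to transcript length and to the mapped fragments of the library. All 24 libraries summed to the same total of 86768 FPKM. A value is therefore a level per length and a share of a fixed sum, relative to the whole library. The table holds no counts, so the reads behind a value are unknown. The spacing of low values gave relative depths: taking 1 GV May library as 1, 19 libraries lay between 0.542 and 1.06, while GV May replicate 6 was at 0.0565, MII May replicate 6 at 0.149, GV July replicate 2 at 0.393, GV July replicate 3 at 2.19 and GV July replicate 5 at 6.51. The 3 shallowest are also those with under 70% of reads mapped in the alignment summary of the study, called poorly mapped here. All 8 of the 12 oocyte markers listed in the table were expressed, with a summed level of at least 396 FPKM in each library. Of 18 cumulus cell markers, 14 passed the filter described below, with a summed level of 38.2 to 588 FPKM in GV May, 34.0 to 123 in GV July, 34.9 to 162 in MII May and 27.2 to 85.3 in MII July. AREG, CYP19A1, FSHR and CD44 were under the filter, at most 0.0687 FPKM, in every library. The highest sum of each of the first 3 groups was in its shallow library. A high sum was not limited to these. GV May replicate 3, at a relative depth of 0.609 and not poorly mapped, had 176 FPKM, above every library of the other groups.

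The ZNF genes were mostly low. Their mean over the 24 libraries ran from 0.0103 to 57.3 FPKM with a median of 0.219, against a median of 0.296 for all genes in the table. A mean of at least 1 FPKM was reached by 36 of the 167 members (21.6%), against 32.4% of all genes, and at least 10 FPKM by 3. These 3 genes, ZNF593, ZNF706 and ZNF22, held 44.3% of the summed mean FPKM of the members. At the other end, 21 members never exceeded 0.1 FPKM in any library and were not tested, so 146 members entered the comparisons. Each member was above the table's lowest value of 0.01 in at least 1 library, and 88 were above it in every library. The number at 0.01 ranged from 2 members in GV July replicate 5, the deepest library, to 55 in MII May replicate 6 and 44 in GV May replicate 6, which are the shallowest libraries.

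All 167 symbols matched a protein-coding gene in RefSeq. They lay on 27 chromosomes, and 48 (28.7%) were on chromosome 18, which held 5.41% of the genes in the table. Chromosome 25 held 18, chromosome 7 held 11 and chromosome 4 held 8. Another member lay within 100 kb of 75 members. The listed span of 27 members overlapped that of another row; ZNF397 and ZNF24 overlap SERPINB2, ZNF706 overlaps POLR2K, ZNF511 overlaps SORCS3, and ZNF470 and ZNF667 overlap the span of 355466 bases listed for ZNF444. The widest listed span by far was that of ZNF280B, 21759213 bases, which overlapped 183 rows. Whether counting used the strand is not given in the sources used here, so reads shared between such rows cannot be told apart.

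The summed FPKM of the 167 members was lower at MII than at GV. It ran from 265 to 421 FPKM in GV May (median 344) and from 272 to 366 in GV July (median 313), and from 200 to 228 in MII May (median 212) and from 164 to 237 in MII July (median 205). The ranges of GV and MII did not overlap in either month. Without ZNF593 and ZNF706, the summed level was 118 to 264 FPKM in GV May and 132 to 146 in MII May, which overlap, and 164 to 278 in GV July and 97.9 to 155 in MII July, which do not.

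**Figure D1:**
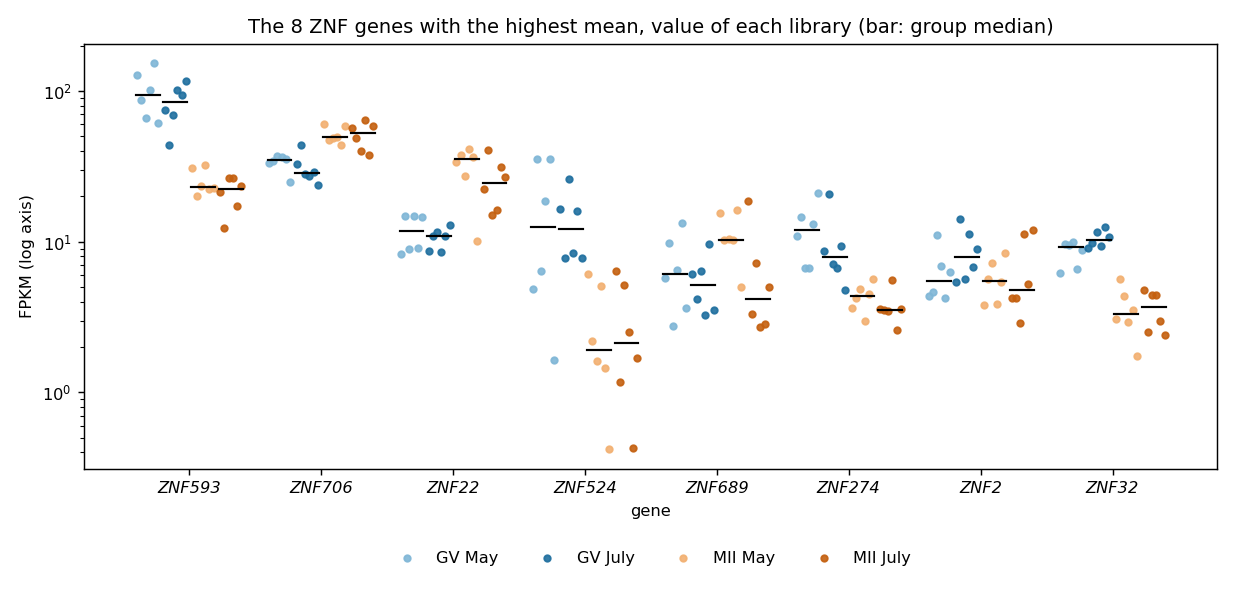
FPKM on a log axis of the 8 ZNF genes with the highest mean, with 1 dot for each of the 6 libraries of a group and a bar at the group median. ZNF593 sits at 44.0 to 152 FPKM in GV oocytes and at 12.3 to 32.3 in MII oocytes, while ZNF706 and ZNF22 have higher medians at MII and ZNF2 overlaps in all groups.

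ZNF593, the most abundant member, fell from GV to MII in both months. The protein is the relative of yeast Bud20, which accompanies the large ribosomal subunit out of the nucleus, and the gene lies on chromosome 2 from 127523710 to 127524791 (UMD3.1.1). Its lowest, median and highest values were 61.5, 94.0 and 152 FPKM in GV May and 20.02, 23.1 and 32.3 FPKM in MII May. In July they were 44.0, 84.7 and 116 FPKM at GV and 12.3, 22.5 and 26.6 FPKM at MII. Every GV library was above every MII library in both months. The mean was 3.93-fold lower at MII in May and 3.92-fold lower in July. On the log2(FPKM + 1) scale used for all tests, the change was -1.88 ± 0.25 (SE) in May (limma adjusted p = 0.000340) and -1.90 ± 0.26 in July (adjusted p = 0.000198). The exact two-sided permutation p over the 924 assignments was 0.00216 in each month, the smallest that 6 against 6 libraries can give.

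ZNF622, the relative of yeast Rei1, which acts in the late cytoplasmic maturation of the large ribosomal subunit, fell as well. Its lowest, median and highest values were 2.07, 4.08 and 11.6 FPKM in GV May and 0.848, 1.15 and 1.72 in MII May, and 4.49, 6.42 and 12.1 in GV July and 0.629, 1.01 and 2.28 in MII July. No GV library reached down to an MII library in either month. The log2 change was -1.30 ± 0.28 in May (limma adjusted p = 0.00635) and -1.81 ± 0.25 in July (adjusted p = 0.000214).

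ZNF706, a small protein, went the other way by less than 2-fold. Its lowest, median and highest values were 24.8, 34.8 and 36.8 FPKM in GV May and 43.8, 49.2 and 60.3 in MII May, and 23.7, 28.5 and 43.6 in GV July and 37.6, 52.8 and 63.8 in MII July. The May groups did not overlap, and the July groups did. The mean was 1.54-fold higher at MII in May (log2 change 0.61 ± 0.18, limma adjusted p = 0.0256) and 1.65-fold higher in July (0.71 ± 0.19, adjusted p = 0.0150). It therefore passed the adjusted p but not the fold limit of a call. Of 13 genes listed for ribosome and RNA functions, 8 were tested, and ZNF330 and ZNF638 are given after their values were seen. ZNF330, a nucleolar protein, had medians of 3.21 FPKM in GV May and 6.97 in MII May (log2 change 0.90 ± 0.22, limma adjusted p = 0.0104) and of 3.42 and 6.72 in July (0.72 ± 0.29, adjusted p = 0.0796). ZNF638, a nuclear protein, rose by 0.57 ± 0.19 in May (limma adjusted p = 0.0422) and had a difference of 0.43 ± 0.17 in July (adjusted p = 0.0717). So within this list 2 members were called lower and none higher in each month, while 3 rose at the adjusted p in May and 1 in July. Over all genes, 8.25% and 9.26% were called lower, and 9.45% and 7.67% were higher at the adjusted p.

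A call here means an unadjusted limma p under 0.05 and a fold over 2 on the log2(FPKM + 1) scale. The study used the same limits on the p and fold of another test, Partek GSA. Its counts of genes and those given here are therefore not comparable. From GV to MII in May, 1 member was called higher and 14 lower, which is 15 of 146 (10.3%) against 11.8% of the 9526 genes tested. In July 2 were called higher and 14 lower, 16 of 146 (10.96%) against 11.5% of all genes. Both shares lie near those of all genes. Over the same genes, 3.57% were called higher and 8.25% lower in May, and 2.2% and 9.26% in July. With the poorly mapped libraries left out, 15 members were called in May and 15 in July. After quantile normalization, 2 were higher and 10 lower in May and 2 and 12 in July. The shares of all genes called under these settings are not given here, so these counts have no background beside them. The median log2 change over the tested members was -0.06 in May and -0.07 in July, beside -0.03 and -0.02 over all genes.

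All called members had a mean of at least 1 FPKM. Of the 36 such members, 15 were called in May (41.7%) against 29.9% of the 3665 genes at this level, and 16 in July (44.4%) against 28.9%. By direction, 9.28% of the genes at this level were called higher and 20.7% lower in May, and 5.73% and 23.2% in July. The median log2 change of these 36 members was -0.70 in May and -0.73 in July, beside 0.08 and -0.05 over all genes at this level. The cut is on the mean of all 24 libraries, so a gene can pass it through its GV libraries alone. ZNF691 did so, with no MII library at 1 FPKM. The fall of such a member is then partly set by the cut. Among the 110 tested members under 1 FPKM none was called, against 0.495% of all genes at this level in May and 0.563% in July. On this scale a gene well below the pseudocount of 1 can hardly change by 2-fold. At an unadjusted limma p under 0.05 alone, 62 of the 146 members passed in May (42.5%, against 38.8% of all genes) and 74 in July (50.7%, against 42.1%). At an adjusted p under 0.05 with no limit on the fold, 10 members were higher and 24 lower in May (9.45% and 14.7% of all genes passed this rule, against 6.85% and 16.4% of the members). In July 8 were higher and 43 lower (7.67% and 23.1% of all genes, against 5.48% and 29.5% of the members). Both directions together, 24.2% of all genes passed in May and 30.7% in July. Of the 110 members under 1 FPKM, 6 were higher and 11 lower in May, against 5.31% and 9.96% of the genes at this level, and 5 were higher and 27 lower in July, against 3.89% and 19.7%.

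**Figure D2:**
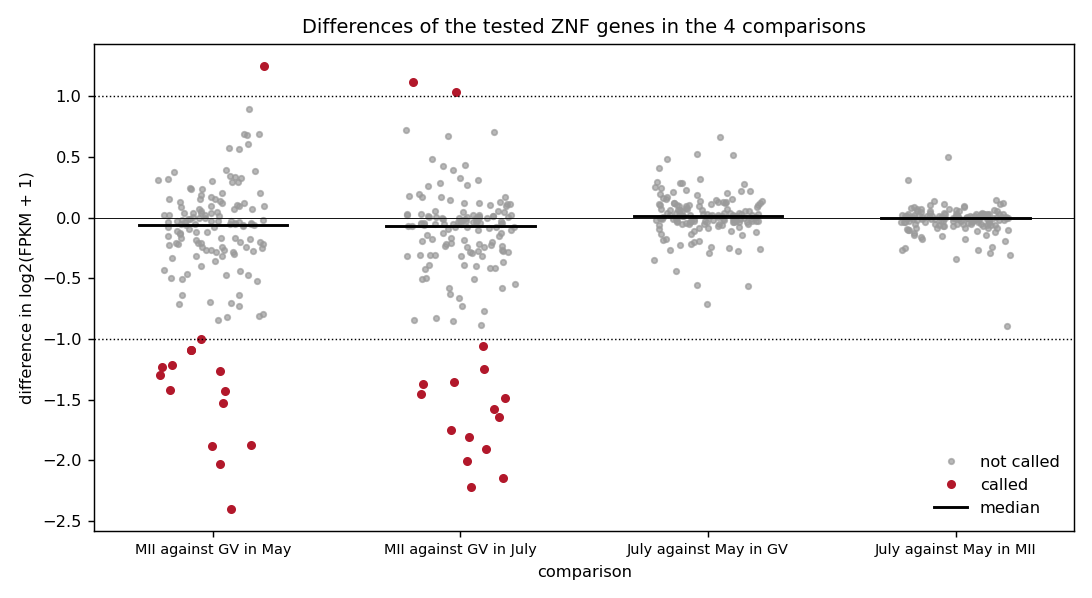
Difference in log2(FPKM + 1) of each of the 146 tested ZNF genes in the 4 comparisons, with red dots for called genes, a bar at the median and dotted lines at a 2-fold change. Called genes lie below the lower line in both maturation comparisons, except 1 in May and 2 in July that lie above the upper line, and none is called between July and May.

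Both maturation comparisons gave largely the same members, and they share no library. Of the called members, 14 were called in both months, all in the same direction, which is 93.3% of those called in May and 87.5% of those called in July; over all genes these shares were 73.7% and 76.0%. ZNF22 was the one called higher in both. The 13 called lower in both were ZNF576, ZNF691, ZNF593, ZNF524, ZNF574, ZNF397, ZNF622, ZNF226, ZNF32, ZNF414, ZNF511, ZNF274 and ZNF771. ZNF639 was called in May only, and ZNF304 and ZNF705A in July only. The direction was the same in both months for 126 of 146 members (86.3%), against 85.5% of all genes.

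**Figure D3:**
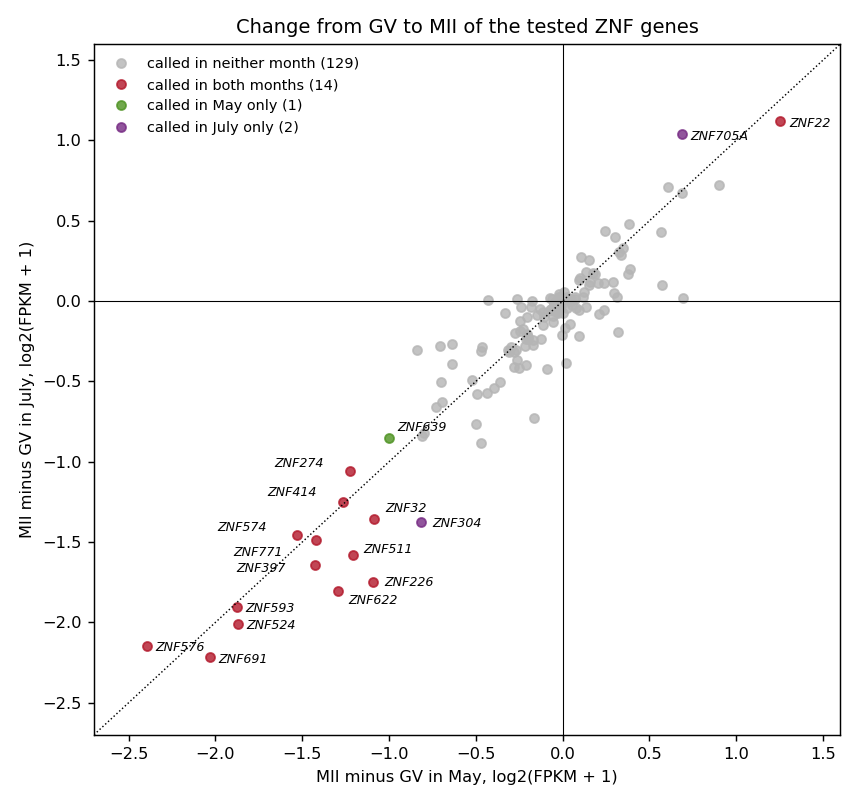
Change from GV to MII of the 146 tested ZNF genes in May (x axis) and July (y axis) as differences in log2(FPKM + 1), with the dotted line marking equal change. Of the 14 genes called in both months, 13 lie at the lower left and ZNF22 lies at the upper right.

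ZNF22 rose at MII. The gene lies on chromosome 28 from 44925708 to 44927697. Its lowest, median and highest values were 8.34, 11.9 and 14.9 FPKM in GV May and 10.1, 35.2 and 41.2 in MII May, where the lowest was replicate 6, the shallow library. In July they were 8.60, 10.9 and 12.8 FPKM at GV and 15.0, 24.5 and 40.8 at MII, and these groups did not overlap. The mean was 2.64-fold higher at MII in May (log2 change 1.25 ± 0.33, limma adjusted p = 0.0151) and 2.40-fold higher in July (1.12 ± 0.24, adjusted p = 0.00386). Without MII July replicate 2, the July change was 0.97, under the fold limit.

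ZNF705A was the other member called higher, in July. It had 1.33, 2.53 and 3.31 FPKM as lowest, median and highest values in GV July and 2.20, 6.44 and 16.7 in MII July, so the groups overlapped. Its log2 change was 1.04 ± 0.36 in July (limma adjusted p = 0.0439), and the difference was 0.69 ± 0.36 in May (adjusted p = 0.179). The July call was lost without GV July replicate 1 (0.93) or without MII July replicate 4 (0.96), 5 (0.99) or 6 (0.77).

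ZNF576 had the largest fall of the called members in May and ZNF691 in July. ZNF576 lies on chromosome 18 from 52156627 to 52159135. Its lowest, median and highest values were 5.93, 10.4 and 18.6 FPKM in GV May and 0.711, 1.11 and 2.07 in MII May, and 4.22, 6.75 and 11.4 in GV July and 0.223, 0.802 and 1.64 in MII July. In both months the lowest GV library stood above the highest MII library. The mean was 9.13-fold lower at MII in May (log2 change -2.40 ± 0.27, limma adjusted p = 0.000115) and 8.22-fold lower in July (-2.14 ± 0.26, adjusted p = 9.17e-05).

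ZNF691, on chromosome 3 from 103983016 to 103988378, had 1.66, 5.94 and 11.2 FPKM in GV May and 0.212, 0.533 and 0.787 in MII May as lowest, median and highest values. In July it had 3.95, 5.49 and 9.12 FPKM at GV and 0.174, 0.369 and 0.864 at MII. The groups stood apart in both months, and no MII library reached 1 FPKM. By the ratio of means the gene was 11.5-fold lower at MII in May and 12.8-fold lower in July, the widest ratios of any called member; the log2 changes were -2.03 ± 0.33 (limma adjusted p = 0.00103) and -2.22 ± 0.21 (adjusted p = 1.94e-05).

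ZNF524, a telomere-binding protein, is on chromosome 18 from 62388930 to 62392090. It varied widely among the GV May libraries, with a lowest, median and highest value of 1.63, 12.6 and 35.6 FPKM, and had 0.419, 1.90 and 6.14 FPKM in MII May. The lowest GV May value was in the shallow replicate 6, and the May groups overlapped. In July the values were 7.74, 12.1 and 26.0 FPKM at GV and 0.427, 2.11 and 6.40 at MII, with no overlap. The log2 change was -1.87 ± 0.65 in May, where the limma adjusted p of 0.0519 missed 0.05, and -2.01 ± 0.43 in July (adjusted p = 0.00374).

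ZNF274 binds the 3′ ends of other zinc finger genes and recruits SETDB1 there. It is on chromosome 18 from 65732473 to 65755775. Its lowest, median and highest values were 6.65, 11.997 and 21.2 FPKM in GV May and 2.96, 4.37 and 5.66 in MII May, and 4.80, 7.91 and 20.8 in GV July and 2.58, 3.55 and 5.53 in MII July. The groups stood apart in May and overlapped in July. The log2 change was -1.23 ± 0.27 in May (limma adjusted p = 0.00687) and -1.055 ± 0.28 in July (adjusted p = 0.0130). The July call was lost without GV July replicate 2, the highest library and a shallow one (-0.82), and without MII July replicate 5 (-0.98). Of 10 genes listed for genome and chromosome maintenance, 6 were tested. ZNF274 was the only gene of them called, lower in each month (16.7%, against 8.25% and 9.26% of all genes). ZNF668 and ZNF207 are given after their values were seen. ZNF668 fell at the adjusted p in both months, from a median of 0.319 to 0.0403 FPKM in May (limma adjusted p = 0.00529) and from 0.216 to 0.0372 FPKM in July (adjusted p = 0.0350). In units of the spacing between low values, its MII libraries lay at 0 to 5 steps in May and 0 to 4 in July. A gene this low at MII could pass the filter through GV libraries alone, and its fall is then partly set by the filter. ZNF207, which binds the checkpoint protein BUB3 on the spindle, had medians of 1.71 and 2.72 FPKM in May and 2.07 and 3.47 in July (limma adjusted p = 0.637 and 0.247).

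ZNF32 fell in both months as well, from 6.23, 9.16 and 9.92 FPKM as lowest, median and highest values in GV May to 1.75, 3.30 and 5.67 in MII May. In July it had 9.11, 10.3 and 12.5 FPKM at GV and 2.41, 3.70 and 4.76 at MII. No library of 1 stage overlapped the other in either month. The log2 change was -1.09 ± 0.23 in May (limma adjusted p = 0.00506) and -1.36 ± 0.18 in July (adjusted p = 0.000145). Without the shallow MII May replicate 6 the May change was -0.95, under the fold limit.

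ZNF574, on chromosome 18 from 51504590 to 51507407, had 2.43, 8.63 and 20.8 FPKM as lowest, median and highest values in GV May and 0.634, 2.03 and 6.18 in MII May, with overlap. In July it had 4.33, 7.12 and 15.0 FPKM at GV and 0.868, 2.56 and 3.35 at MII, without overlap. The log2 change was -1.53 ± 0.48 in May (limma adjusted p = 0.0350) and -1.45 ± 0.30 in July (adjusted p = 0.00327).

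The other called members, all but ZNF639 outside the rule for named genes and named after their values were seen, were lower at MII in the same way. ZNF226, a KRAB protein, had medians of 5.78 and 2.32 FPKM in May (log2 change -1.09 ± 0.23, limma adjusted p = 0.00480) and 9.61 and 2.06 in July (-1.75 ± 0.17, adjusted p = 2.35e-05). Its May change was -0.99 without GV May replicate 2 and -0.97 without GV May replicate 4, under the fold limit. ZNF397, which carries a SCAN domain, had medians of 3.01 and 0.568 FPKM in May (-1.42 ± 0.18, limma adjusted p = 0.000213) and 3.49 and 0.448 in July (-1.64 ± 0.20, adjusted p = 7.63e-05). ZNF414 had medians of 3.18 and 0.947 FPKM in May (-1.27 ± 0.27, limma adjusted p = 0.00530) and 3.22 and 0.722 in July (-1.25 ± 0.27, adjusted p = 0.00397). For ZNF226, ZNF397 and ZNF414 the GV and MII libraries did not overlap in either month. ZNF511 was listed at 0.01 FPKM in GV May replicate 6, the shallowest library, with a group median of 2.72 against 0.537 in MII May, and in July its GV libraries of 1.94 to 4.20 FPKM stood clear of the MII libraries of 0.0553 to 0.904. ZNF771 spread over 1.64 to 20.99 FPKM in GV May and 0.241 to 5.34 in MII May, and its limma adjusted p was 0.0918 in May and 0.0148 in July. Its May call was lost without GV May replicate 2, 4 or 5 or MII May replicate 3, 5 or 6, with changes of -1.36 to -1.10. ZNF639 lay at the 2-fold limit, with log2 changes of -1.003 in May and -0.85 in July (limma adjusted p = 0.0140 and 0.00659); the May value was -0.99 to -0.83 without GV May replicate 2, 3 or 5 or MII May replicate 1, 3 or 4. ZNF304, a KRAB protein, had a log2 change of -1.37 ± 0.37 in July (limma adjusted p = 0.0146) and a difference of -0.82 ± 0.37 in May (adjusted p = 0.118).

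**Figure D4:**
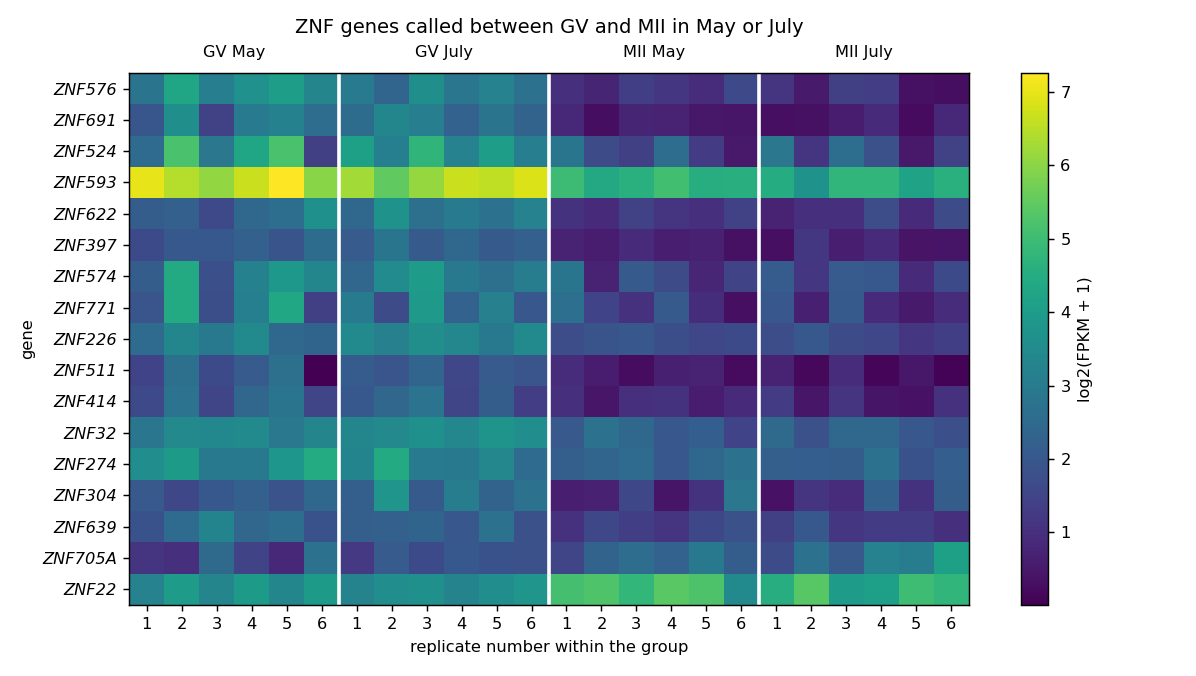
Level as log2(FPKM + 1) of the 17 ZNF genes called between GV and MII in May or July, with 1 column per library and white lines between the groups. The upper 15 genes are mostly darker in the 12 MII columns, while ZNF705A and ZNF22 at the bottom are mostly brighter there; ZNF511 is darkest in GV May replicate 6, where it was at 0.01 FPKM.

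For ZNF2 and ZNF689 no change passed the test. ZNF2, a KRAB protein, had 4.21, 5.49 and 11.1 FPKM as lowest, median and highest values in GV May and 3.82, 5.52 and 8.36 in MII May, and 5.40, 7.88 and 14.2 in GV July and 2.89, 4.76 and 11.9 in MII July. The groups overlapped throughout, with differences of -0.09 ± 0.26 in May and -0.43 ± 0.34 in July (limma adjusted p = 0.803 and 0.361). ZNF689 had 2.76, 6.10 and 13.4 FPKM in GV May and 5.02, 10.3 and 16.1 in MII May, and 3.28, 5.12 and 9.65 in GV July and 2.72, 4.15 and 18.5 in MII July; its differences were 0.69 ± 0.35 and 0.02 ± 0.40 (limma adjusted p = 0.165 and 0.983).

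Lower on the scale, 10 of 110 members under 1 FPKM changed at the adjusted p in both months, 7 lower (6.36%) and 3 higher (2.73%) at MII, against 8.19% and 1.74% of all genes at this level. They were named after their values were seen, and their FPKM ratios are larger than their differences on the log2(FPKM + 1) scale. ZNF655 had a median of 0.537 FPKM in GV May and 0.0652 in MII May (limma adjusted p = 0.000522), and 0.494 and 0.0725 in July (adjusted p = 0.00155). ZNF692 had medians of 0.871 and 0.102 FPKM in May (limma adjusted p = 0.00449) and 0.758 and 0.101 in July (adjusted p = 0.00167). ZNF502 had medians of 0.685 and 0.155 FPKM in May (limma adjusted p = 0.0375) and 0.925 and 0.131 in July (adjusted p = 0.00121). The other 4 that fell were ZNF668, given above, ZNF174, ZNF572 and ZNF775, all with MII medians under 0.1 FPKM in both months. The filter took a gene over 0.1 FPKM in any 1 library, so a member this low at MII could enter through GV libraries alone. The fall of such a member is then partly set by the filter. ZNF775 had at most 0.0540 FPKM in MII May. The 3 that rose were ZNF470, a KRAB protein, from a median of 0.396 to 1.19 FPKM in May and from 0.503 to 1.37 in July, ZNF292 from 0.106 to 0.364 and from 0.128 to 0.507, and ZNF667 from 0.0795 to 0.204 and from 0.0730 to 0.209. In units of the spacing between low values, the MII May libraries lay at 0 to 5 steps for ZNF655 and 0 to 8 for ZNF775, but at 118 to 569 for ZNF292.

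The libraries of both stages were fully apart for some members. In May, 5 of 146 members had every MII library above every GV library and 18 had every MII library below, against 4.65% and 8.98% of all genes; the members' shares were 3.42% and 12.3%. In July 2 stood above and 23 below, which is 1.37% and 15.8%, against 3.07% and 14.7%.

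On chromosome 18, the share of members called was near that of its other genes. Of the 43 tested members there, 5 were called lower in May (11.6%) and 6 in July (14.0%) and none higher. Of the 103 members on other chromosomes, 9 were called lower and 1 higher in May (8.74% and 0.971%). In July 8 were lower and 2 higher (7.77% and 1.94%). Over all genes tested, 8.25% were lower and 3.57% higher in May, and 9.26% and 2.2% in July. The 509 other genes of chromosome 18 were called lower in 12.2% of cases in May and 13.2% in July. On chromosome 25, 1 of 18 members, ZNF771, was called lower in each month (5.56%, against 8.25% and 9.26% of all genes tested).

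Among sequence-specific regulators outside the KRAB class, 14 of 24 listed genes were tested. ZNF639 was called lower in May (7.14%, against 8.25% of all genes) and none in July (against 9.26%). At the adjusted p, 2 were lower in May, ZNF639 and ZNF384, and 3 in July, ZNF639, ZNF335 and ZNF410, with none higher, against 14.7% and 23.1% of all genes lower. ZNF384 had medians of 0.386 and 0.116 FPKM in May (limma adjusted p = 0.00736) and 0.322 and 0.0919 in July (adjusted p = 0.0632). ZNF410 had medians of 0.265 and 0.105 FPKM in July (limma adjusted p = 0.00948) and 0.155 and 0.0922 in May (adjusted p = 0.307). ZNF384, ZNF410, ZNF143 and ZNF335 are given after their values were seen. ZNF143, an activator of many promoters, had mean levels of 0.404 to 0.663 FPKM over the 4 groups with differences of 0.16 ± 0.12 in May and 0.12 ± 0.12 in July (limma adjusted p = 0.364 and 0.457). ZNF335, a component of histone H3K4 methyltransferase complexes, fell at the adjusted p in July, by 0.41 on the log2 scale (limma adjusted p = 0.00176), and had a difference of -0.28 in May (adjusted p = 0.0569).

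A list of 26 genes held silencing partners of KRAB proteins and also genes of maternal methylation, and 18 of them were tested. DPPA3 protects maternal methylation in the zygote and is not a KRAB partner. It was the only gene called in each month (5.56%, against 11.8% and 11.5% of all genes). It was higher at MII in both, with group means of 219 and 507 FPKM in May and 249 and 566 in July. At the adjusted p, 5 genes of the list rose and none fell in May. In July 2 rose and none fell, against 9.45% and 7.67% of all genes that rose in May and July. TRIM28 had group means of 5.03 FPKM in GV May, 8.92 in MII May, 10.99 in GV July and 9.81 in MII July (limma adjusted p = 0.168 in May and 0.899 in July), and SETDB1 of 1.03, 1.06, 1.59 and 1.07 (adjusted p = 0.894 and 0.533). Groups with similar names were taken by symbol alone, which does not ensure related proteins. Of these, 2 of 21 ZBTB genes were called in May and 1 in July, and none of 7 ZFP genes in either month. Of 13 ZSCAN and ZKSCAN genes, 1 was called in May and 2 in July. Over all genes, 11.8% and 11.5% were called.

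Cumulus cell markers were compared between the stages in the same way. In May 1 of 14 tested markers, HAS2, was called, higher at MII, and none lower. In July HAS2 was again the only marker called, higher. This is 7.14% in each month, against 11.8% and 11.5% of all genes. GREM1 fell at the adjusted p in July (log2 change -0.45 ± 0.13, limma adjusted p = 0.0166). Oocyte markers moved with stage too. In May 4 of 8 (50%) were called, with BMP15, OOSP1 and ZP2 higher and NLRP5 lower. In July 3 (37.5%) were called, with OOSP1 higher and NLRP5 and ZP3 lower. The summed level of the oocyte markers had a mean of 606 FPKM in GV May and 1110.3 in MII May. In July it was 876 at GV and 1385 at MII. KRT18 reached 392 FPKM, VIM 75.7, INHA 37.2 and AMH 13.4 FPKM at their highest, in GV May. The group means of HAS2, PTGS2 and PTX3 were instead higher at MII than at GV in each month. KRT8 (group means 18.9 to 40.4 FPKM) and STAR (20.6 to 29.1) made up much of the cumulus marker sums outside GV May. The part of other cells, or of this shift in abundant oocyte transcripts, in the member values was not tested. With the poorly mapped libraries left out, ZNF32 was not called in May and ZNF274 was not called in July, and the other called members were still called. This setting keeps GV May replicate 3, with a cumulus marker sum of 176 FPKM.

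Between July and May no member was called in GV oocytes, in MII oocytes or in the difference between the months' maturation changes. In GV oocytes 3 of the 9526 genes tested were called (0.0315%, with 0.0105% higher and 0.021% lower in July), in MII oocytes 4 (0.042%) and in the difference 20 (0.21%). The paper reported more season genes at each stage with Partek GSA, and those counts are not comparable with these. Of the genes with a mean of at least 1 FPKM, 0.0819% were called in GV oocytes (0.0273% higher and 0.0546% lower in July), 0.109% in MII oocytes and 0.546% in the difference. Among the members, 3 of 146 had an unadjusted limma p under 0.05 in GV oocytes, 3 in MII oocytes and 4 in the difference; 1.55%, 2.11% and 1.8% of all genes did, against 2.05% of the members in GV oocytes. No member had its July and May libraries fully apart at either stage, which 0.136% and 0.042% of all genes did in GV oocytes (higher and lower in July) and 0.0105% and 0.168% in MII oocytes. The median difference of the members was 0.02 in GV oocytes on the log2 scale, beside 0.01 over all genes. The largest differences ran from -0.71 to 0.67 in GV oocytes.

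The members nearest to a season difference were these, as values only. In GV oocytes ZNF367 had 0.01, 0.0689 and 0.127 FPKM as lowest, median and highest values in May and 0.104, 0.134 and 0.241 in July (difference 0.11 ± 0.04, exact permutation p = 0.00866, limma adjusted p = 1). ZNF862 had 0.0513, 0.121 and 0.179 FPKM in May and 0.01, 0.0614 and 0.0970 in July (-0.08 ± 0.04, exact permutation p = 0.0368, limma adjusted p = 1). ZNF304 had 2.0, 3.08 and 4.42 FPKM in May and 3.16, 4.81 and 12.8 in July (0.67 ± 0.29, exact permutation p = 0.0368, limma adjusted p = 1). All 3 overlapped between the months, and the highest July value of ZNF304 came from the shallow GV July replicate 2.

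In MII oocytes ZNF322 had 0.0955, 0.154 and 0.217 FPKM in May and 0.0325, 0.0807 and 0.157 in July (-0.09 ± 0.03, exact permutation p = 0.0216, limma adjusted p = 1). ZNF687 had 0.0414, 0.0657 and 0.130 FPKM in May and 0.01, 0.0249 and 0.0598 in July, with 3 July libraries at 0.01 (-0.06 ± 0.02, exact permutation p = 0.0346, limma adjusted p = 1). ZNF689 had 5.02, 10.3 and 16.1 FPKM in May and 2.72, 4.15 and 18.5 in July (-0.89 ± 0.41, exact permutation p = 0.0714, limma adjusted p = 1). The ranges overlapped for all 3. In ZNF689, July replicate 1 held the highest value of both months while the other 5 July libraries were at 7.27 FPKM or less. Without it the difference was -1.22 and the gene was called, as it was without the shallow MII May replicate 6, at -1.08.

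For the difference between the months in the change from GV to MII, ZNF226 had the smallest p of the members, with a difference of -0.66 ± 0.28 on the log2 scale (limma adjusted p = 0.9998). ZNF862 and ZNF322 followed, with differences of 0.08 ± 0.04 and -0.15 ± 0.07 at the same adjusted p. In ZNF226 the GV medians were 5.78 FPKM in May and 9.61 in July, and the MII medians were 2.32 and 2.06. None of these passed the adjustment over all genes.

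**Figure D5:**
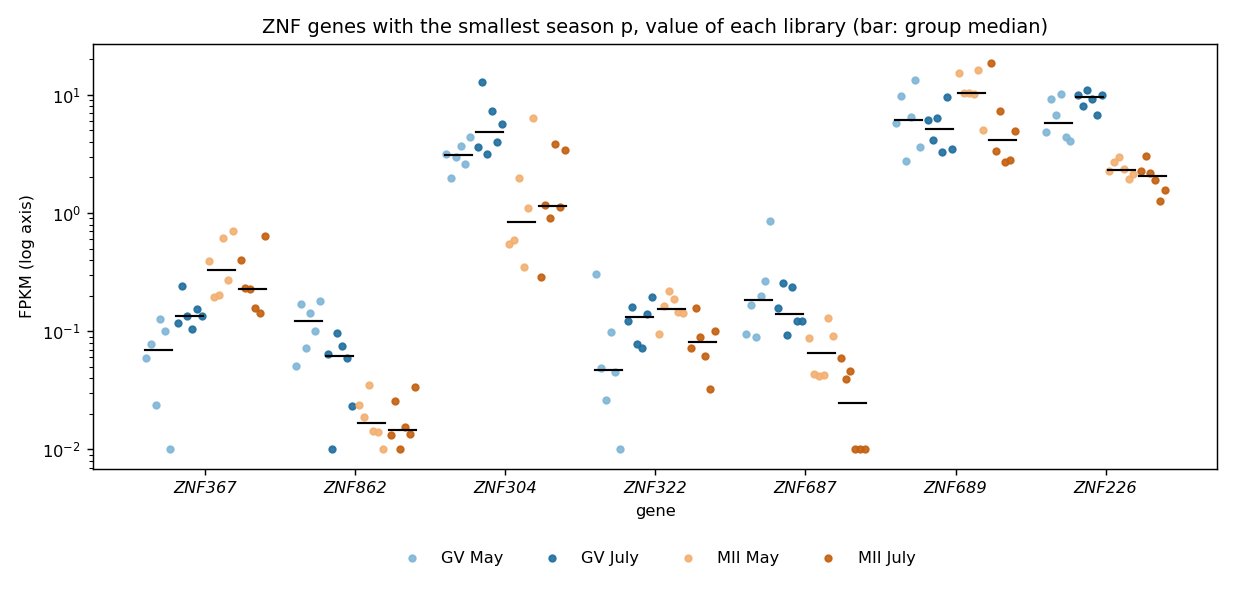
FPKM on a log axis of the 7 ZNF genes with the smallest p in the season comparisons, with 1 dot for each of the 6 libraries of a group and a bar at the group median. The July and May dots of the same stage overlap for each gene, and at least 1 dot each of ZNF367, ZNF862, ZNF322 and ZNF687 lies at 0.01 FPKM, the lowest value of the table.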

How the data were processed

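RNA of 24 pools of 4 bovine oocytes was amplified with a Smart-seq kit and sequenced as paired ends. The authors aligned the reads to UMD3.1.1 with STAR 2.5.3a and deposited FPKM values; each library has the same total and no value is under 0.01, as seen in the values. Depth was estimated here only relatively and was not set beside the read numbers that the study reports. The deposited values hold no counts per gene, so counting error is unknown.

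From these values, log2(FPKM + 1) of the 9526 genes over 0.1 FPKM in at least 1 library was tested with limma 3.58.1 in R 4.3.3 (trended moderation), on the 12 libraries compared or, for the season difference, all 24. Adjusted p is Benjamini-Hochberg over all genes. Exact permutation tests used 924 assignments. Partek Flow, used by the authors, was not run. Python 3.11.15, numpy 2.4.6, pandas 2.3.3 and matplotlib 3.10.9 were used. The limma fit and the depth estimate were tested on simulated data. Relative depth came from the spacing of low values; of 7451 values kept aside, 7443 were whole multiples of it to within 0.1.

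Named genes were the 8 members with the highest mean, the 5 largest rises and falls among the called, the 3 smallest season p where none was called, and called members of the role lists; others are marked as named after their values were seen. Members and lists were chosen with earlier results of these data known. Replicates are separate pools, each of 1 animal. The same cows were collected in both months, so groups can share animals, but whether a replicate number marks the same animal is not given. Coordinates are those of the deposited table. The alternatives were other pseudocounts, filters, scalings, fits and left-out libraries.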

Additional observations from a re-analysis of the deposited data

Results flagged for a closer look

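Of 136 groups of 6 libraries checked, over 34 named ZNF genes, 8 had a highest or lowest library whose gap to the nearest of the others, over the group's range, was above Dixon's 95% critical value; chance gives about 1 such group in 20. ZNF706 was at 24.8 FPKM in GV May replicate 6, against a median of 35.2 in the other 5 libraries. ZNF22 was at 10.1 FPKM in MII May replicate 6 (others 36.7). ZNF687 was at 0.860 FPKM (others 0.168) and ZNF292 at 0.362 FPKM (others 0.105), both in GV May replicate 6. ZNF667 was at 0.219 FPKM in GV July replicate 2 (others 0.0704). These 5 values come from the 3 shallowest libraries. In libraries of usual depth, ZNF322 was at 0.307 FPKM in GV May replicate 1 (others 0.0449), ZNF639 at 3.06 FPKM in MII July replicate 2 (others 1.47) and ZNF775 at 0.0540 FPKM in MII May replicate 4 (others 0.0143). Their causes were not tested.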

How the results depend on the processing

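The number of called members depended on how low values were treated. In May, 15 became 49 with a pseudocount of 0.1, 62 with none, 58 with the ratio of mean FPKM as the fold and 34 at an adjusted p with no fold limit, the last 2 chosen after seeing the data; in July, 16 became 43, 67, 63 and 51. Lower calls outnumbered higher ones throughout, as with 48 lower and 14 higher without a pseudocount in May. Over all genes in the main fit, 8.25% were called lower and 3.57% higher in May. Quantile normalization gave 2 higher and 10 lower in May and lost ZNF226, ZNF32, ZNF639 and ZNF771; in July it lost ZNF274 and ZNF414. The cause was not tested. Requiring an adjusted p with the same fold left 13 in May, without ZNF524 and ZNF771, and 16 in July. Dropping single libraries gave 12 to 15 in May, where calls of ZNF226, ZNF32, ZNF639 and ZNF771 were lost, and 14 to 16 in July, where those of ZNF22, ZNF274 and ZNF705A were. The share of all genes passing is given here only for the adjusted p with no fold limit, 24.2% in May and 30.7% in July. The other counts are therefore not read as particular to the members.

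Season calls were 0 in GV oocytes, but 3 with no pseudocount and 2 with the ratio of means, and 0 to 0 on dropping 1 library. In MII oocytes they were 1 with a pseudocount of 0.1, 2 with none, 1 without the poorly mapped libraries, 1 with the ratio of means and 0 to 1 with 1 library left out. For the season difference in maturation they were 2, 4 and 3 with these pseudocounts and the ratio, and 0 to 1 with 1 library left out (ZNF689 without MII July replicate 1). The shares of all genes called under these season alternatives are not given here either.

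Of 1456 alternative values for 69 gene results, 1364 kept direction and side of the threshold, 51 passed it anew, 31 lost it and 10 reversed, all in genes that were not called. ZNF2 in May became 0.11 with quantile normalization and ran from -0.20 to 0.070 without single libraries, above 0 without GV May replicate 3. ZNF689 in July, at 0.02, became -0.0078 with a pseudocount of 0.1, -0.012 with none, -0.036 without the poorly mapped libraries, and -0.31 to 0.17 without single libraries.

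Whether same-numbered libraries share an animal is not given, and the values were mixed: 12 of 24 same-numbered pairs had correlated deviations over 0.1 (range -0.44 to 0.76), and 9 of 24 were closest to their own number, 4 of them among the 6 pairs of MII oocytes. In the MII pairs of July against May, the correlation was 0.764, 0.677, 0.426 and 0.694 for replicates 1, 2, 5 and 6. It was -0.0904 and -0.441 for replicates 3 and 4. The main tests did not use this pairing. With the replicate number as a block, 15, 16, 0, 0 and 0 members were called. The shares of all genes called with the block are not given here. Of the members with a measurable spacing, 123 had a mean under 1 FPKM, and 49.3% of their values were at most 10 steps above 0, against 9.78% for the other 23.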
